A study of Mus musculus with 36 samples.

Results

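The genes described here encode CXC chemokines, and were taken as the rows of the 36 deposited count tables whose symbol is Cxcl1, Cxcl2, Cxcl3, Cxcl9, Cxcl10, Cxcl12, Cxcl13, Cxcl16 or Pf4. These are 9 of the 24421 genes listed. Reads were counted for 18168 genes, all 9 among them. RNA was sequenced from macrophages of the digested aorta, monocytes of blood and spleen, and macrophages of peritoneal lavage, each sorted by flow cytometry. Every group, baseline included, had the genotype Apoe ko, a loss of apolipoprotein E that leaves lipoprotein remnants in the blood and leads to atherosclerosis. Baseline mice ate a chow diet, early mice a high cholesterol diet for 1 month and advanced mice the same diet for 6 months. The 3 populations and 3 stages make 9 groups of 4 libraries. The labels give no sex or age, and do not state if each library had its own mouse. The p-values therefore measure only how far these libraries spread, which may be technical. The monocytes are titled circulating, but their tissue is given as blood and spleen together.

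Chemokines are small proteins that steer leukocytes along gradients by binding G-protein-coupled receptors, and the CXC family is named for a residue that parts a pair of conserved cysteines. Cxcl1, Cxcl2 and Cxcl3 carry a glutamate-leucine-arginine motif, bind Cxcr2 and attract neutrophils, and macrophages make them within hours of inflammatory stimulation through NF-kB. Cxcl9 and Cxcl10 are interferon-induced ligands of Cxcr3 on T and NK cells. Cxcl12 holds haematopoietic cells in their niches through Cxcr4, and Cxcl13 draws B cells through Cxcr5 and is made by macrophages of the body cavities. Cxcl16 is made as a transmembrane protein that binds Cxcr6 and also takes up oxidised lipoproteins. Pf4, also called Cxcl4, is stored in platelet granules and is also transcribed by some tissue-resident macrophages.

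On GRCm38.p6, the assembly also called mm10, RefSeq places 7 of the 9 genes on chromosome 5. Pf4 (chr5:90772435-90773383), Cxcl3 (chr5:90786101-90788093), Cxcl1 (chr5:90891245-90893121) and Cxcl2 (chr5:90903899-90905938) stand within 133.5 kb. Cxcl9 (chr5:92321331-92328079) and Cxcl10 (chr5:92346638-92348889) are neighbours within 27.6 kb, and Cxcl13 lies at chr5:95956939-95961068. Cxcl12 is at chr6:117168535-117181368 and Cxcl16 at chr11:70454389-70459984. RefSeq's promoter table for this build held 8 of the 9 genes. The 250 bases before the annotated start are shown for the 3 neutrophil attractants, neighbours on the chromosome that share a receptor, and for Cxcl10. They are written 5′ to 3′ on the strand of the gene. Capitals mark matches to the NF-kB consensus and, in Cxcl10, to the interferon-stimulated response element (GAAA, any 2 bases, GAAA) and TGANTCA (AP-1).
Cxcl1, chr5:90890995-90891244, plus strand: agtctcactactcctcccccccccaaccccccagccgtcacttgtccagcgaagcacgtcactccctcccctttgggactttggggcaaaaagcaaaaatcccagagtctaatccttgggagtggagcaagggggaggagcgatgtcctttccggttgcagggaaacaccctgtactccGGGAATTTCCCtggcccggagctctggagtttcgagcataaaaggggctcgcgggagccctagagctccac
Cxcl2, chr5:90903649-90903898, plus strand: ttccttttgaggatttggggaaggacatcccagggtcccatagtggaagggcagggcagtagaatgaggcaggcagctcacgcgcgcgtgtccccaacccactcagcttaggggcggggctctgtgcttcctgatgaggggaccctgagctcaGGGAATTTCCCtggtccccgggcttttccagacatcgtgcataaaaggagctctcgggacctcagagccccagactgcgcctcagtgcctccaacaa
Cxcl3, chr5:90785851-90786100, plus strand: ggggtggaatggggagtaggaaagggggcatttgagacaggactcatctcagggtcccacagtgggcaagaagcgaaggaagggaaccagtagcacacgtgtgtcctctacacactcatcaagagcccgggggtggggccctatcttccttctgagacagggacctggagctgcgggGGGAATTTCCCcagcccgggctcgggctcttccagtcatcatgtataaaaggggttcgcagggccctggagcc
Cxcl10, chr5:92348890-92349139, minus strand: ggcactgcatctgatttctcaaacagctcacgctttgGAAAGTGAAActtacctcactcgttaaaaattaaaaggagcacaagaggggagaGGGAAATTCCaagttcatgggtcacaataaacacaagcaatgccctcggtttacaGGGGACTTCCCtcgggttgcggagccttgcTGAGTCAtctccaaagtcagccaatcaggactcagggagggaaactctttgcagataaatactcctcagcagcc
The same 11-base block GGGAATTTCCC, which holds an NF-kB match on each strand, stood in all 3 neutrophil attractants. Counted back from the start, it began at base -71 in Cxcl1, -97 in Cxcl2 and -73 in Cxcl3. In Cxcl10 GAAAGTGAAA began at -213, NF-kB matches began at -159, -104 and -103 (the last of these overlap), and TGAGTCA began at -74. The windows of Cxcl9, Cxcl12, Cxcl13 and Pf4 held no match to these motifs or to TTCNNNGAA (the gamma-activated sequence). Searched on both strands, the NF-kB consensus was in 7.01% of 27025 windows of this length, the interferon element in 3.04%, TGANTCA in 6.87% and TTCNNNGAA in 7.18%. A match is a string of letters and was not tested for binding.

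Libraries held 0.943 to 14.8 M counted reads. The 12 baseline libraries held 5.28 to 14.8 M and the other 24 held 0.943 to 2.63 M, so a difference from baseline cannot be told apart from a difference of sequencing depth or run. Levels are given as CPM, the reads of a gene scaled to the library's total, unless stated. The macrophage markers were present throughout, with a summed level of 5639 to 8516 CPM over 9 genes in the aorta and 7321 to 13031 CPM in the peritoneum. Earlier work on these data set 6 libraries apart from the rest of their groups. They are libraries 3 and 4 of the aorta at baseline, library 1 of the aorta and library 3 of the monocytes at the advanced stage, and libraries 1 and 2 of the peritoneum at the early stage. Without them the aorta kept only baseline libraries 1 and 2, and the peritoneum only early libraries 3 and 4. Leaving out a library at the edge of its group moves a difference by construction. A pass reached in this way is no further support. Stages were compared with edgeR's quasi-likelihood test over all genes of a population, and a gene was called at an adjusted p under 0.05. Comparisons of a population share libraries: both later stages were set against the same baseline. Aortic libraries varied most within their groups, with an edgeR biological coefficient of variation of 110%, against 19.1% for monocytes and 21.2% for peritoneal macrophages.

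In aortic macrophages Cxcl2 rose at both stages on the diet and Cxcl1 at the advanced stage. Cxcl2 was the most abundant of the 3 neutrophil attractants at every stage. Cxcl2 stood at 356, 343.6, 179.6 and 535.6 CPM at baseline, at 2631, 1420, 2266 and 1529 CPM at the early stage, and at 2166, 3444, 3480 and 3803 CPM at the advanced stage. Every library on the diet was above every baseline library, while the early and advanced libraries overlapped. The early rise was 2.56 ± 0.31 on the log2 scale (SE, 5.90-fold, n = 4 and 4 libraries, edgeR adjusted p = 0.00027). From baseline to the advanced stage the rise was 3.28 ± 0.32 (9.73-fold, adjusted p = 1.14e-05). Both calls held with each of 8 libraries left out in turn and under all 7 other settings tried. Neutrophil markers, 7 genes of a cell type that also makes Cxcl2, summed to 0 to 16.44 CPM in the aorta at baseline, 77.6 to 204.3 CPM at the early stage and 0 to 3.745 CPM at the advanced stage, and their part was not tested. At the early stage S100a8, Ltf, Ngp and Mmp8 had no read, so that sum came from the 3 other genes. The mean of log2(CPM + 1) over the 7 genes was only 0.8995 to 1.213 there.

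Cxcl1, the close relative of Cxcl2, had 40.64, 24.47, 2.652 and 43.94 CPM in the aorta at baseline, 303.4, 74.71, 198.2 and 117.2 CPM at the early stage, and 150, 493.3, 628 and 638.9 CPM at the advanced stage. Again no baseline library reached the level of any library on the diet, and the later stages overlapped. The advanced rise passed the test, at 4.19 ± 0.68 (18.3-fold, adjusted p = 0.00404), with each library left out and under every other setting. The early difference of 2.73 ± 0.63 did not pass (adjusted p = 0.0675). In 8 fits with a library left out it passed in 1, without aortic baseline library 4 (3.11 ± 0.67, adjusted p = 0.0226). It passed in 5 of 7 other settings, with an adjusted p of up to 0.104 over the 7. The 5 were no filter, thinning, DESeq2, a fit of all 36 libraries, and leaving out the libraries that stood apart (2.60 ± 0.49, adjusted p = 0.014).

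Cxcl3, the least abundant of the neutrophil attractants, had no read in any of the 4 aortic baseline libraries. Early libraries held 0, 0.7623, 2.282 and 0 CPM, and advanced libraries 0, 7.467, 39.53 and 6.482 CPM. It was thus seen in 3 of 4 advanced libraries and led by library 3. The group totals were 0, 7 and 127 reads. Against a floor of 3 reads over the baseline group, which covers counting error at baseline only, the pooled advanced level was 171-fold higher and the pooled early level 9.65-fold higher. Reads on the diet were taken as exact, so these ratios are not lower bounds on the difference. Library 3 held 95 of the 127 advanced reads and 6 of the 7 early ones. Without it the advanced ratio was 61.3-fold, from 32 reads, and the early stage kept 1 read, under the floor. Cxcl3 did not pass the filter on low counts in the fit of any population. Without that filter its adjusted p was 0.261 for early against baseline and 0.147 for advanced against baseline.

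Across the aortic members, 1 of the 8 tested was called for early against baseline, where 0.373% of 9920 genes were called. For advanced against baseline 2 of 8 were called, against 0.585% of genes. For advanced against early none of the 8 was called, where 0.0403% of genes were. There 5 of the 8 (354 of all genes) had an unadjusted p under 0.05 in edgeR's test, and DESeq2 also called 0 members (0.262% of genes). The libraries of the 2 stages did not overlap for 4 members at the early stage against baseline (all higher, 3.12% of genes were), for 4 at the advanced stage against baseline (all higher, 5.46%), and for 4 between the later stages (2 higher, 4.89%, and 2 lower, 3.76%). The median log2 change of the tested members was 1.76 for early against baseline and 1.72 for advanced against baseline, beside -0.02 and -0.04 over all genes. The summed level of all 9 members was 931.5 to 1431 CPM at baseline, 2565 to 4152 CPM at the early stage and 3219 to 5429 CPM at the advanced stage.

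**Figure D1:**
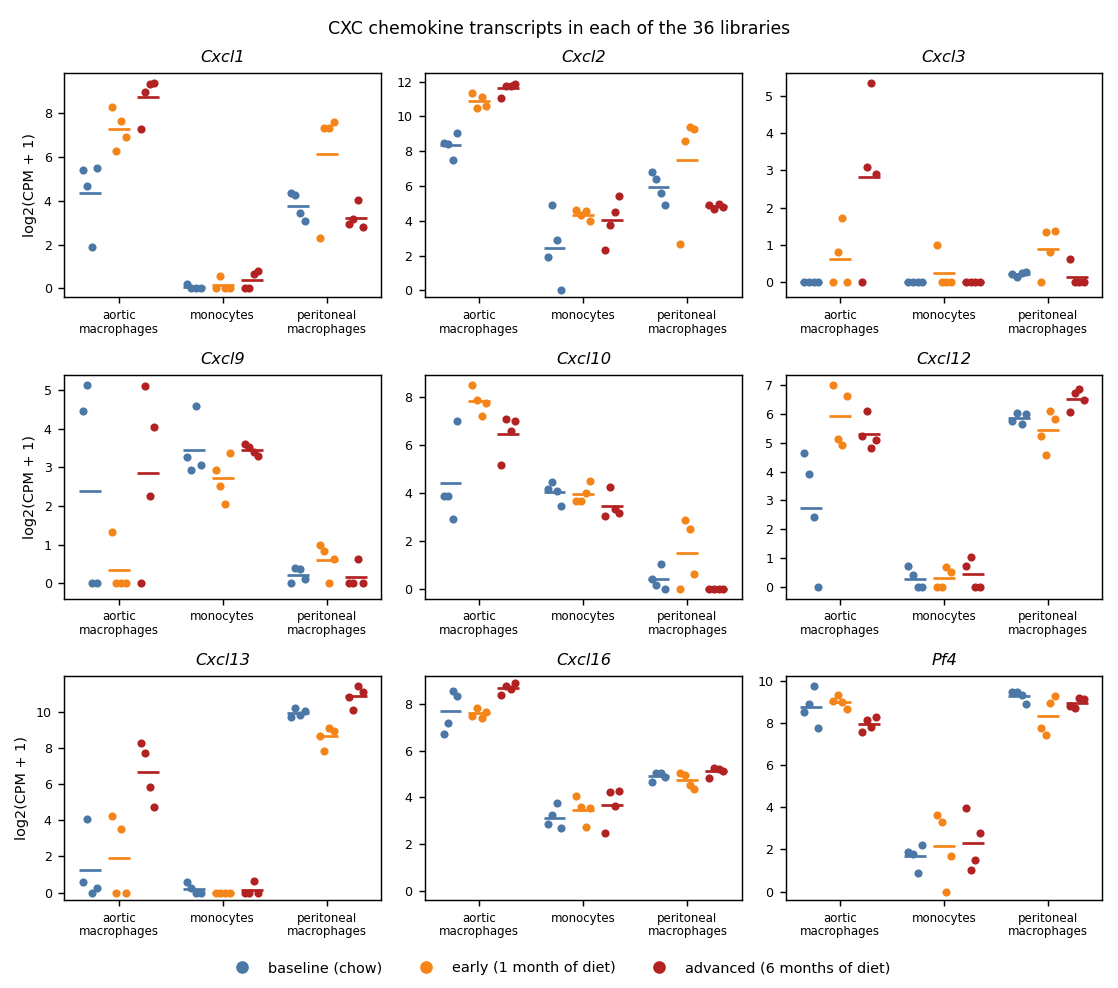
Each point is 1 library and each bar the mean of 4, on a log2(CPM + 1) axis, for the 9 CXC chemokines in the 3 populations and 3 stages. Cxcl1 and Cxcl2 climb from baseline to both later stages in the aorta, and 3 of the 4 early peritoneal libraries stand above the rest of their population while library 1 does not. Cxcl13 is highest in the peritoneum, and Cxcl16 is highest in the aorta.

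In peritoneal macrophages Cxcl1 and Cxcl2 were high at the early stage in 3 of 4 libraries and low again at the advanced stage. Cxcl1 had 19.45, 17.94, 9.794 and 7.266 CPM at baseline, 3.885, 154, 154.6 and 187 CPM at the early stage, and 6.556, 7.801, 15.25 and 5.878 CPM at the advanced stage. Early library 1 was below all other peritoneal libraries and the other 3 were above them. The early rise passed the test (3.26 ± 0.65, 9.58-fold, adjusted p = 0.0298), and so did the fall from early to advanced (-3.79 ± 0.77, adjusted p = 0.0354).

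Cxcl2 had the same outlying library in the peritoneum. Its baseline levels were 111.1, 85.27, 46.72 and 28.79 CPM, its early levels 5.342, 380.7, 671.9 and 610.2 CPM, and its advanced levels 29.5, 24.6, 29.95 and 26.68 CPM. It fell from the early to the advanced stage (-3.90 ± 0.85, adjusted p = 0.0433), and the early difference from baseline did not pass (2.70 ± 0.76, adjusted p = 0.078). In 8 fits with a library left out that difference passed in 1, without early library 1, the lowest (3.11 ± 0.36, adjusted p = 0.000514). Without early libraries 1 and 2 only early libraries 3 and 4 were left. The early rise was then 3.78 ± 0.30 for Cxcl1 (adjusted p = 3.3e-05) and 3.36 ± 0.33 for Cxcl2 (adjusted p = 0.000221).

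These peritoneal calls rested on few libraries. The call of Cxcl1 for early against baseline was lost without baseline library 1, 2 or 3 or early library 2, with an adjusted p of 0.0829, 0.0988, 0.109 and 0.0633. The calls of Cxcl1 and Cxcl2 for advanced against early were lost without early library 2 or any 1 advanced library, with an adjusted p of up to 0.125 for Cxcl1 and 0.16 for Cxcl2. All 3 calls were also lost when every library was thinned to 942899 reads, with an adjusted p of 0.168, 0.26 and 0.188. Cxcl3 had 17 reads in the 12 peritoneal libraries, 8 of them at baseline and 8 at the early stage.

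A list of 13 immediate early and heat shock genes, which respond within minutes to handling and other stimuli, moved beside Cxcl1 and Cxcl2. Its summed level in the early peritoneal libraries was 1535, 4756, 5304 and 3539 CPM, lowest in library 1, against 893.9 to 1665 CPM at baseline and 670.1 to 1250 CPM at the advanced stage. Of the 13 genes, 8 rose from baseline to early in the peritoneum, where 1.37% of all genes were called higher, and 9 fell from early to advanced, where 0.804% were called lower. Examples are Egr1, a growth-response transcription factor (3.71 ± 0.58, adjusted p = 0.0105, then -4.28 ± 0.67, adjusted p = 0.013), and Jun, a subunit of AP-1 (2.58 ± 0.37, adjusted p = 0.0099, then -3.20 ± 0.39, adjusted p = 0.0045). In the aorta the sum was 5573 to 13622 CPM at baseline, 16426 to 29098 CPM at the early stage and 13475 to 18882 CPM at the advanced stage, and 6 of 13 genes rose in each comparison with baseline (0.312% of all genes at the early and 0.534% at the advanced stage). Among these, Atf3, a stress-induced transcription factor, rose by 2.64 ± 0.40 on the log2 scale at the early stage (adjusted p = 0.00318) and by 1.96 ± 0.40 at the advanced stage (adjusted p = 0.0198). The part of this response in the chemokine levels was not tested.

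**Figure D2:**
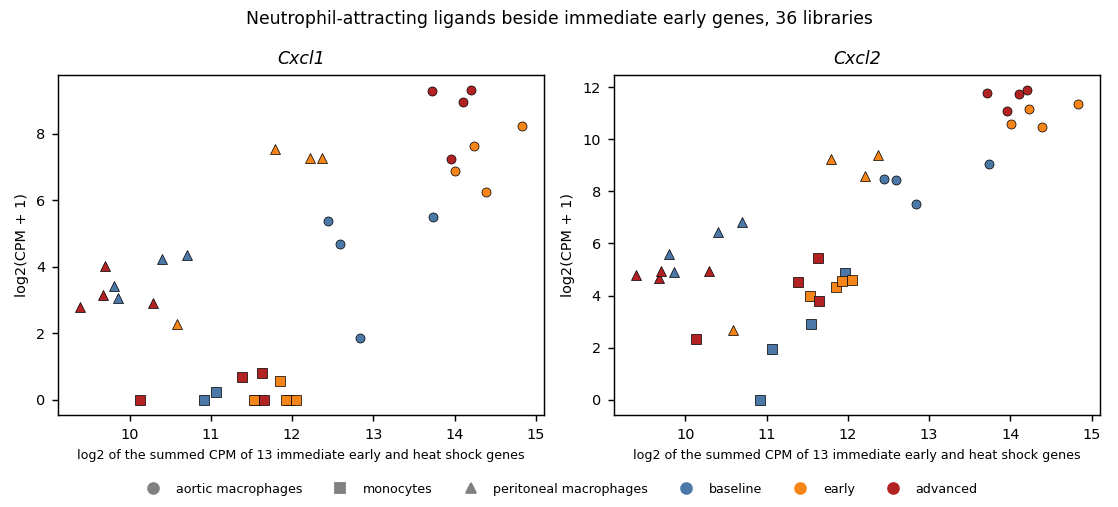
Each point is 1 of the 36 libraries. The x axis is the log2 of the summed CPM of 13 immediate early and heat shock genes, and the y axis log2(CPM + 1) of Cxcl1 or Cxcl2. Early peritoneal library 1, with a sum of 1535 CPM, lies among the baseline and advanced peritoneal libraries along the x axis, and the other 3 early libraries lie at 3539 CPM or more with the higher Cxcl1 and Cxcl2.

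Of 16 inducers and feedback regulators of NF-kB, 2 rose in the aorta from baseline to early (0.312% of all genes did) and 3 from baseline to advanced (0.534%). Nfkbiz, a nuclear co-activator of NF-kB target genes, rose by 1.81 ± 0.35 on the log2 scale (adjusted p = 0.0247) and 1.94 ± 0.35 (adjusted p = 0.00905). Zfp36, which speeds the decay of chemokine mRNA, rose by 1.67 ± 0.32 (adjusted p = 0.0227) and 1.56 ± 0.32 (adjusted p = 0.0218). Il1b, the interleukin-1 beta gene, rose by 2.66 ± 0.56 at the advanced stage (adjusted p = 0.0263). The median log2 change of the 16 was 1.05 and 1.27, beside -0.02 and -0.04 over all genes. In the peritoneum 2 of 14 tested members, Nfkbiz and Tnfaip3, which edits ubiquitin to end NF-kB signalling, rose from baseline to early, beside 1.37% of all genes. From early to advanced these and Zfp36 fell, 3 of 14 beside 0.804%.

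In monocytes the neutrophil attractants were scarce. Cxcl1 had 5 reads and Cxcl3 had 2 in all 12 libraries together. Cxcl2 had 2.824, 28.45, 6.431 and 0 CPM at baseline, 23.17, 18.89, 22.67 and 14.61 CPM at the early stage, and 3.971, 12.73, 21.95 and 42.85 CPM at the advanced stage. The stages overlapped, and Cxcl2 differed by 1.15 ± 0.85 for early against baseline (adjusted p = 0.425) and by 1.23 ± 0.88 for advanced against baseline (adjusted p = 0.355). In 8 fits with a library left out the advanced difference passed in 1, that without baseline library 2, which was high (2.75 ± 0.80, adjusted p = 0.0372). None of the 5 members tested in monocytes was called between stages, where 10.8% of 9465 genes were called for early against baseline, 2.05% for advanced against early and 19.0% for advanced against baseline. At an unadjusted p under 0.05, 1, 0 and 0 members and 2479, 1751 and 3055 genes passed in these comparisons, and DESeq2 called 0 members (13.8%, 4.6% and 20.9% of genes). Neutrophil markers moved in the same libraries, with sums of 238.7 to 719.1 CPM at baseline, 3783 to 14191 CPM at the early stage and 5044 to 40076 CPM at the advanced stage over 7 genes. Their part in the monocyte levels was not tested.

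Cxcl10, an interferon-induced attractant of T cells, was higher in early than in baseline aortic libraries without passing the test. Its levels were 13.55, 13.44, 6.441 and 125.5 CPM at baseline, 358.8, 229.5, 146.1 and 209.4 CPM at the early stage, and 34.47, 132.1, 94.46 and 125.2 CPM at the advanced stage. All early libraries were above all others, and baseline library 4 stood among the advanced ones. The early difference was 2.58 ± 0.77 (adjusted p = 0.142) and the advanced one 1.30 ± 0.74 (adjusted p = 0.71). In 7 other settings the early difference passed in 4, among them no filter and DESeq2, and the advanced one in 1. In 8 fits with a library left out each passed in 1, that without baseline library 4. The values were then 4.56 ± 0.56 (adjusted p = 6.33e-05) and 3.29 ± 0.53 (adjusted p = 0.000982). That library also held 33.76 CPM of Ifnb1, the interferon-beta gene, which had no read in the other 3 baseline libraries. Its Tnf was at 342.6 CPM, against 52.47 to 107.9 CPM in those. A link of either gene to Cxcl10 was not tested.

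In monocytes Cxcl10 held a narrow range, from 9.813 to 20.54 CPM at baseline, 11.59 to 21.69 CPM at the early stage and 7.28 to 18.03 CPM at the advanced stage. In the peritoneum it had 39 reads in all, and the 4 advanced libraries had none. Its promoter window above is the only one of the 8 with a match to the interferon-stimulated response element.

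Cxcl9, which shares the receptor of Cxcl10, was patchy in the aorta. Libraries held 20.83, 34.31, 0 and 0 CPM at baseline, 1.525, 0, 0 and 0 CPM at the early stage, and 0, 33.13, 3.745 and 15.4 CPM at the advanced stage. The difference was -4.86 ± 2.47 for early against baseline (adjusted p = 0.54) and 4.98 ± 2.48 for advanced against early (adjusted p = 1), and neither passed. Monocytes gave it in every library, from 3.148 to 22.95 CPM, and the peritoneum held 13 reads in all. Ifng, the interferon-gamma gene that induces Cxcl9, had no read in aortic or peritoneal libraries at this depth. The median log2 change of 12 tested genes of the interferon-gamma axis in the aorta was -0.32 for early against baseline, and that of 14 genes of the type I interferon response was 0.20, beside -0.02 over all genes.

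Cxcl12, the ligand that retains leukocytes through Cxcr4, was low and variable in the aorta and present in every peritoneal library. Aortic libraries held 23.91, 13.92, 4.357 and 0 CPM at baseline, 127.6, 34.31, 28.91 and 98.18 CPM at the early stage, and 36.34, 67.2, 27.47 and 32.82 CPM at the advanced stage. Each library on the diet was above each baseline library, yet neither the early difference (2.99 ± 1.16, adjusted p = 0.322) nor the advanced one (2.14 ± 1.13, adjusted p = 0.649) passed. Fibroblast markers, 7 genes of a cell type known to make Cxcl12, were by group also highest at the early stage. Their sums were 56.75, 287.2, 143.8 and 8.895 CPM at baseline and 780.6, 1058, 510.1 and 951.2 CPM at the early stage. At the advanced stage they were 379.2, 330.9, 140.2 and 147.1 CPM. In no group did the libraries stand in the same order for Cxcl12 and this sum. The part of fibroblasts in the aortic level was not tested. In such sorted pools fewer cells of a type and less RNA per cell cannot be told apart.

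In peritoneal libraries the fibroblast sum was at most 0.9044 CPM, and the part of such cells in the level of Cxcl12 was not tested. Cxcl12 was present there at every stage. It had 52.61, 63.87, 49.07 and 62.74 CPM at baseline, 36.42, 22.67, 67.04 and 55.09 CPM at the early stage, and 65.02, 105.6, 114.4 and 87.72 CPM at the advanced stage. Advanced libraries were all above the baseline ones and overlapped the early ones. The difference was 0.78 ± 0.27 against baseline (adjusted p = 0.181) and 1.10 ± 0.29 against early (adjusted p = 0.0752). Without early libraries 1 and 2 the former passed (0.77 ± 0.16, adjusted p = 0.00995), but it passed in 0 of 8 fits with 1 library left out. The latter passed in 2 of 8 such fits. These were without early library 3 (1.36 ± 0.29, adjusted p = 0.0294) or 4 (1.26 ± 0.32, adjusted p = 0.0442), the highest early ones.

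Cxcl13, the B cell attractant, was a major transcript of peritoneal macrophages, and it rose from early to advanced, where Cxcl1 and Cxcl2 fell. Within the early stage, libraries 3 and 4 were the highest for Cxcl13 as for Cxcl1 and Cxcl2. Cxcl13 had 837.3, 1160, 900.4 and 1031 CPM at baseline, 408, 224.4, 544.7 and 487.9 CPM at the early stage, and 1777, 1097, 2695 and 2152 CPM at the advanced stage. Early libraries were below all others, and advanced library 2 overlapped the baseline range. From early to advanced it rose by 2.25 ± 0.31 on the log2 scale (4.75-fold, adjusted p = 0.00862), with each library left out and in all alternatives except a fit of all 36 libraries (adjusted p = 0.409). The early difference from baseline was -1.19 ± 0.30 (adjusted p = 0.0587), and the advanced one 1.06 ± 0.30 (adjusted p = 0.101). The early difference passed in 2 of 8 fits with a library left out. These were without early library 3 (-1.38 ± 0.32, adjusted p = 0.0271) or 4 (-1.31 ± 0.33, adjusted p = 0.0424), the highest early ones. The advanced one passed in 1 of 8, without advanced library 2, the lowest of its group (1.26 ± 0.27, adjusted p = 0.0487).

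Early peritoneal libraries 1 and 2, with the lowest Cxcl13, were also low in markers of large peritoneal macrophages. The sum of 8 such genes was 9869, 5645, 16921 and 15471 CPM at the early stage, against 17702 to 22141 CPM at baseline and 13976 to 16637 CPM at the advanced stage. Without these 2 libraries the early difference of Cxcl13 was -0.83 ± 0.28 (adjusted p = 0.251) and the rise to the advanced stage 1.89 ± 0.30 (adjusted p = 0.00646).

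In the aorta Cxcl13 was near 0 in most libraries before the advanced stage. It had 0.5131, 15.72, 0 and 0.2143 CPM at baseline, 17.79, 0, 10.65 and 0 CPM at the early stage, and 302.8, 212.3, 57.01 and 25.93 CPM at the advanced stage. Every advanced library was above every earlier one, and the advanced libraries themselves spread from 25.93 to 302.8 CPM. The difference was 5.34 ± 1.61 against baseline (adjusted p = 0.139) and 4.38 ± 1.55 against early (adjusted p = 0.967), and neither passed. Against baseline it passed in 1 of 8 fits with a library left out, that without baseline library 2, the one at 15.72 CPM (9.09 ± 1.79, adjusted p = 0.0309). It passed there in 3 of 7 other settings: no filter, a fit of all 36 libraries, and thinning (6.36 ± 1.44, adjusted p = 0.0214). Against early it passed in 2 of 7 other settings, no filter and the fit of all 36. Markers of large peritoneal macrophages summed to 360 to 557.2 CPM in the advanced aortic libraries. Their sum was 7.18 to 295.5 CPM at baseline and 41.84 to 257.1 CPM at the early stage, and their part was not tested. The list includes Fabp4, which is also among the nonclassical monocyte markers used below. B cell markers, whose cells answer to Cxcl13, summed to 4.994 to 39.13 CPM in those advanced libraries and 3.599 to 49.98 CPM at baseline.

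For the 6 members tested in the peritoneum, 1 was called for early against baseline (1.79% of 9575 genes were), 3 for advanced against early (1.33%) and 0 for advanced against baseline (0.898%; 2 members and 1479 genes had an unadjusted p under 0.05, and DESeq2 called 1, Cxcl13, and 4.88% of genes). The libraries of the 2 groups did not overlap for 1 member in each comparison, which was Cxcl13, lower, for early against baseline (6.14% of genes were), Cxcl13, higher, for advanced against early (3.55%) and Cxcl12, higher, for advanced against baseline (4.84%). The members' median log2 change was -0.22, 0.43 and 0.02, beside 0.02, -0.02 and 0.01 over all genes.

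**Figure D3:**
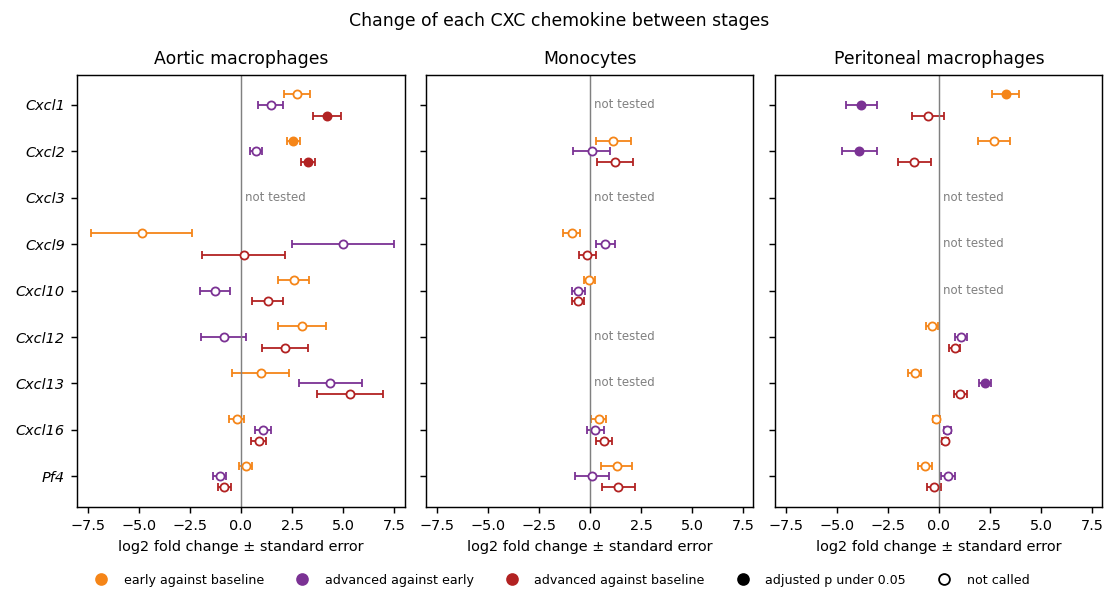
Points are log2 fold changes between stages with their standard errors (bars) for each CXC chemokine in each population. Filled points passed at an adjusted p under 0.05, and genes below the filter on low counts are marked as not tested. In the aorta the filled points are Cxcl2 at both later stages and Cxcl1 at the advanced stage. In the peritoneum the signs of Cxcl1 and Cxcl2 are opposite to that of Cxcl13, whose only filled point is advanced against early. Monocytes have no filled point.

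Cxcl16, the transmembrane chemokine and scavenger receptor for oxidised lipoproteins, was a transcript of aortic macrophages at every stage. It had 104.7, 147.1, 378.1 and 327.2 CPM at baseline, 180.9, 227.2, 170.8 and 204.9 CPM at the early stage, and 339.2, 437.3, 399.1 and 474.4 CPM at the advanced stage. Baseline split into libraries 1 and 2, below the early ones, and libraries 3 and 4, above all the early ones. Advanced libraries were all above early ones, by 1.08 ± 0.37 (adjusted p = 0.921), and overlapped baseline, at 0.87 ± 0.37 (adjusted p = 0.436). Without the libraries that stood apart, baseline 3 and 4 among them, only the lower libraries 1 and 2 were left at baseline. Cxcl16 then passed for advanced against early (1.18 ± 0.23, adjusted p = 0.0469) and advanced against baseline (2.00 ± 0.30, adjusted p = 0.00175). Its early difference then changed sign, from -0.21 ± 0.37 to 0.82 ± 0.28 (adjusted p = 0.955 and 0.165).

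Elsewhere Cxcl16 was lower and did not pass between stages. It spanned 19.6 to 37.21 CPM over the 12 peritoneal libraries and 4.632 to 18.16 CPM over the 12 monocyte libraries. Adam10 and Adam17, the proteases known to shed Cxcl16 from the membrane, were expressed in all 3 populations, at 127.7 to 552.5 CPM and 127.1 to 329 CPM in the aorta.

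Pf4, the platelet factor, was abundant in both macrophage populations and low in monocytes. Aortic libraries held 371.3, 475.9, 860 and 217.2 CPM at baseline, 531, 634.3, 517.7 and 405.7 CPM at the early stage, and 190.1, 281.4, 220.6 and 307.1 CPM at the advanced stage. The advanced libraries were all below the early ones and overlapped baseline, and the difference did not pass (-1.05 ± 0.33, adjusted p = 0.812). Markers of LYVE1 resident arterial macrophages, 9 genes, were also lower at that stage, with a sum of 13115 to 17628 CPM at the early and 8896 to 11350 CPM at the advanced stage. Their part in the Pf4 level was not tested. Of the 11 platelet and megakaryocyte markers, 7 had no read in the aorta at baseline, 7 at the early and 4 at the advanced stage. The sum of the 11 stayed at or below 42.18 CPM in every aortic library. The part of platelets in the aortic Pf4 level was not tested.

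Peritoneal macrophages gave 718, 717.5, 651.4 and 471 CPM of Pf4 at baseline, 215.1, 170.4, 495.2 and 621.4 CPM at the early stage, and 443.6, 420.1, 583.3 and 570.7 CPM at the advanced stage. The low values were those of early libraries 1 and 2, the same that were low in large peritoneal macrophage markers. The early difference of -0.69 ± 0.35 (adjusted p = 0.261) was -0.08 ± 0.18 without them. Platelet markers summed to at most 3.809 CPM in the peritoneum, and their part there was not tested either. In monocytes Pf4 was between 0 and 14.56 CPM, with its higher values (14.56, 11.59 and 8.975 CPM) in advanced library 1 and early libraries 1 and 2. Platelet markers summed to 135.7, 151.6 and 79.83 CPM in those 3 libraries. They also reached 101.9 CPM in baseline library 4 and 81.35 CPM in advanced library 4, where Pf4 was 3.595 and 5.811 CPM, and the lowest sum, 12.59 CPM, was in early library 3, where Pf4 was 0. Their part in the monocyte level was not tested.

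Populations were compared over all 36 libraries, averaged over the 3 stages. Against monocytes, 7 of the 8 tested members were higher in the aorta and none lower, where 36.6% of 11052 genes were called, 18.4% as higher. The libraries did not overlap for 4 of them (2.63% of genes were higher in this way), Cxcl1, Cxcl2, Cxcl16 and Pf4. Cxcl16, at 282.6 ± 124.5 CPM in the aorta and 10.62 ± 4.79 CPM in monocytes (mean ± SD, n = 12 and 12), differed by 4.80 ± 0.23 (27.9-fold, adjusted p = 1.27e-18). Pf4, at 417.7 ± 198.4 and 4.62 ± 4.67 CPM, differed by 6.59 ± 0.36 (adjusted p = 4.21e-17). Cxcl9 was not called (-0.98 ± 0.75, adjusted p = 0.336). The call of Cxcl13 (7.37 ± 0.99, adjusted p = 2.5e-07) was lost with 1 weight per population in limma-voom (4.54 ± 2.09, adjusted p = 0.102), and those of Cxcl10 and Cxcl13 were lost among baseline libraries (adjusted p = 0.54 and 0.0546).

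Against peritoneal macrophages, 5 of 8 members were higher in the aorta (17.1% of genes were called higher) and 2 lower (17.0%), 34.1% being called in all. Cxcl10 (8.28 ± 0.70, adjusted p = 1.71e-11) and Cxcl16 (3.07 ± 0.21, adjusted p = 3.67e-14) were higher with no overlap of libraries (2.06% of genes were). Cxcl13 was lower, at 53.6 ± 98.6 against 1110 ± 748 CPM (-5.96 ± 0.56, adjusted p = 1.68e-10), and at each stage taken alone. Cxcl1 (2.30 ± 0.40, adjusted p = 1.59e-05) and Cxcl2 (3.69 ± 0.48, adjusted p = 8.04e-08) were higher on average. Among baseline libraries their adjusted p was 0.719 and 0.194, and among early libraries 0.768 and 0.0574. Among advanced libraries the differences were 5.68 ± 0.44 and 6.78 ± 0.43 (adjusted p = 8.3e-08 and 1.09e-08). How far these differences vary between stages was not tested.

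The remaining calls against the peritoneum rested on the setting. Cxcl12 was lower in the aorta by 1.13 on the log2 scale (-1.13 ± 0.45, adjusted p = 0.0488), a call kept in 11 of 36 fits with a library left out (adjusted p up to 0.0878). It was lost with replicate number as a block (adjusted p = 0.0749), after thinning (0.0776), in limma-voom (0.0671) and among baseline libraries (0.227), and its sign turned among early libraries (0.62 ± 0.55). Cxcl9 was higher (3.85 ± 0.97, adjusted p = 0.00173), and lost the call without aortic early library 1 (adjusted p = 1) and in limma-voom (adjusted p = 0.239). Pf4 was not called (-0.47 ± 0.27, adjusted p = 0.20). It was lower in the aorta among advanced libraries (-1.10 ± 0.29, adjusted p = 0.00734) and without the libraries that stood apart (-0.74 ± 0.23, adjusted p = 0.00922).

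Peritoneal macrophages exceeded monocytes in 6 of 8 members (15.0% of genes were called higher) and fell below them in 2 (14.8%), 29.8% being called in all. The libraries did not overlap for 5 higher and 2 lower members (6.8% and 10.2% of genes). The 2 lower members were the Cxcr3 ligands, Cxcl9 (-4.83 ± 0.90, adjusted p = 4.4e-05) and Cxcl10 (-5.29 ± 0.72, adjusted p = 3.24e-07). Cxcl13 differed most, with 62422 reads in the peritoneum and 9 in monocytes (13.33 ± 0.89, adjusted p = 4.24e-14). Cxcl12 followed with 3636 and 15 reads (7.88 ± 0.67, adjusted p = 4.65e-12). Cxcl2 (2.81 ± 0.48, adjusted p = 1.14e-05) was not called among baseline or advanced libraries alone (adjusted p = 0.0949 and 0.255), and Cxcl9 not among baseline ones (adjusted p = 0.0996).

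Per length, in RPKM, the order of the members differed between populations and stages. RPKM here divides CPM by the kilobases covered by any exon of any annotated transcript of the gene. This length was 1875 bases for Cxcl1, 2068 for Cxcl2, 3498 for Cxcl3, 2252 for Cxcl10 and 721 for Pf4. For Cxcl2, Cxcl3 and Cxcl10 it was as long as the RefSeq gene or longer. For Cxcl1 it was nearly as long, so introns are included for these genes. Their place beside Pf4 depends on this length, and spliced lengths were not tried. In the aorta Pf4 led at baseline with a median of 587.5 RPKM (range 301.3 to 1193), above Cxcl2 at 169.2 and Cxcl16 at 78.49, whose neighbouring ranges did not overlap for the first pair and did for the second. At the early stage Cxcl2 (917.7) and Pf4 (727.3) overlapped, and at the advanced stage Cxcl2 stood alone at 1674 (1048 to 1839), above Pf4 at 348.1, Cxcl1 at 299, Cxcl16 at 138.4 and Cxcl13 at 117.1. Of these 4, the neighbours overlapped each other. In the peritoneum Pf4 (949.3) and Cxcl13 (839.8) led and overlapped at baseline and at the early stage (492.6 and 389.5), while at the advanced stage Cxcl13 (1709, 953.9 to 2344) was above Pf4 (703.4, 582.6 to 809). In monocytes no member had a median above 10.05 RPKM at any stage.

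**Figure D4:**
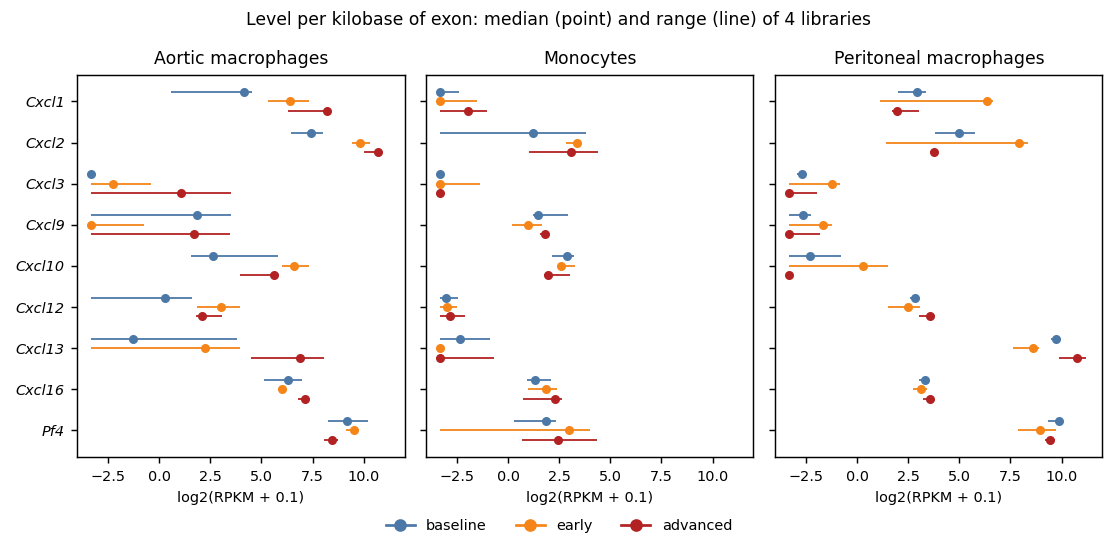
Points are medians and lines the range of 4 libraries, as log2(RPKM + 0.1), for each CXC chemokine by population and stage. Cxcl2 and Pf4 lead in the aorta, Cxcl13 and Pf4 in the peritoneum, and all members lie low in monocytes.

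Of the 9 receptors of this family, 3 or 4 had a read at a given stage in the aorta and 6 or 7 in the peritoneum. In the peritoneum their summed level was 33.83 to 73.29 CPM at baseline, 52.45 to 77.34 CPM at the early stage and 39.34 to 93.97 CPM at the advanced stage. Cxcr2, the receptor of Cxcl1, Cxcl2 and Cxcl3, had no read in any aortic library and 8 reads in the peritoneum. In monocytes it had 4.651, 1.977, 4.062 and 2.138 CPM at baseline, 19.14, 13.23, 1.889 and 11.51 CPM at the early stage, and 34.41, 14.85, 23.14 and 4.358 CPM at the advanced stage. It rose there by 1.86 ± 0.55 on the log2 scale (adjusted p = 0.0426) and by 2.63 ± 0.55 (adjusted p = 0.00472), beside the neutrophil markers given above, whose part was not tested. Cxcr1, Cxcr6 and Ackr1 had no read in the aorta.

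Cxcr4, the receptor of Cxcl12, was the only receptor tested in the aorta, and it rose there. It had 66.5, 159.3, 138.9 and 194.1 CPM at baseline, 564.6, 728.8, 348.8 and 247.4 CPM at the early stage, and 492, 394.3, 354.6 and 459.8 CPM at the advanced stage, with no overlap between baseline and the later stages. The rise was 1.82 ± 0.36 at the early stage (adjusted p = 0.0298) and 1.69 ± 0.36 at the advanced stage (adjusted p = 0.0313). Nonclassical monocyte markers, 8 genes, moved beside it, with sums of 245.5 to 456 CPM at baseline, 1028, 2030, 598.4 and 512.4 CPM at the early stage and 547.6 to 844.7 CPM at the advanced stage. The list includes Nr4a1, which is also among the immediate early genes above. The mean of log2(CPM + 1) over the 8 genes was 1.008 to 3.847 at baseline, 4.266 to 7.148 early and 3.255 to 4.083 advanced. By that mean the advanced stage overlapped baseline. The early libraries stood in the same order for both, and the part of these cells was not tested. Monocytes held 174.3 to 349.2 CPM and peritoneal macrophages 2.053 to 27.86 CPM. Ackr3, a scavenging receptor for Cxcl12, was a peritoneal transcript at 15.24 to 69.45 CPM, with 46 reads in the aorta and 6 in monocytes. Cxcr5, the receptor of Cxcl13, stayed at or below 17.98 CPM in every library, its highest being early peritoneal libraries 1 and 2.

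**Figure D5:**
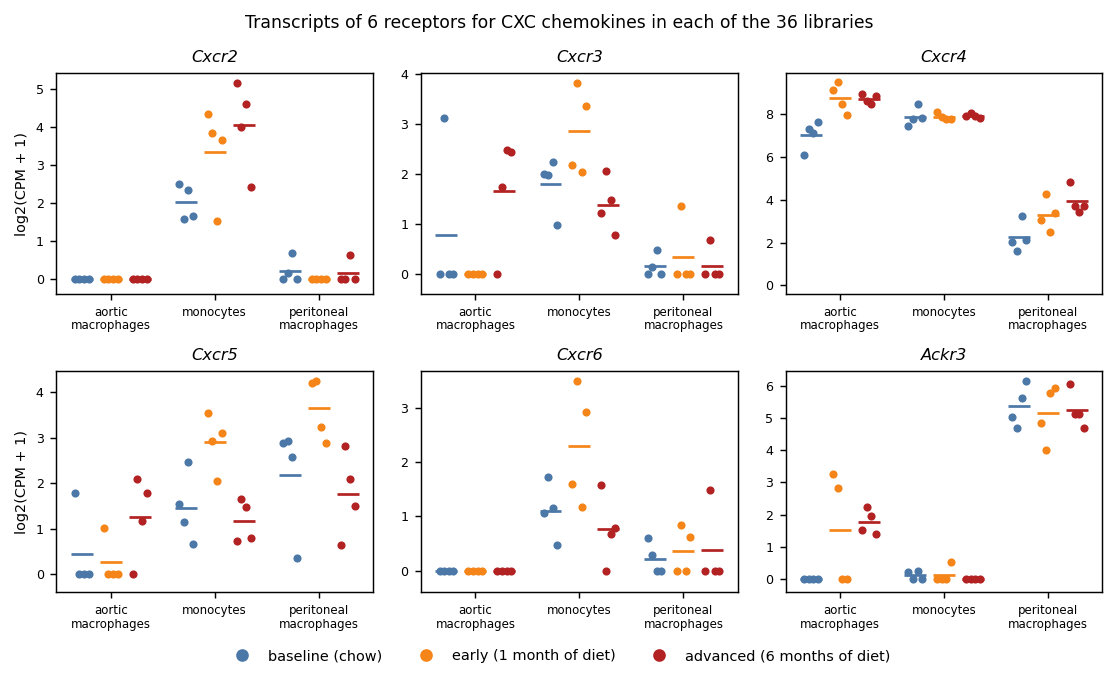
Each point is 1 library and each bar the mean of 4, on a log2(CPM + 1) axis, for 6 receptors of CXC chemokines. Cxcr4 is high in monocytes and above its baseline in aortic macrophages on the diet, Ackr3 is highest in the peritoneum, at 15.24 CPM or more, and Cxcr2 and Cxcr6 lie at 0 in every aortic library.

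Of the 6 other CXC ligands looked for, Cxcl15 and Cxcl17 had no read in any library, and Cxcl5 had 2 reads in the aorta and 7 in monocytes. Cxcl11, annotated by RefSeq as a transcribed pseudogene in this build, had 33 reads in the aorta and 9 in monocytes. Cxcl14 was a low peritoneal transcript at 4.917 to 11.17 CPM with no read in monocytes. Ppbp, a chemokine of platelet granules like Pf4, had 3.778 to 70.03 CPM in monocytes.

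Across the 36 libraries, which differ in population, stage and depth, the levels most like those of each member were ranked by Spearman's rho over 8135 other genes (8136 for Cxcl9), as a description. Nearest to Cxcl1 were Cxcl2 (rho = 0.925), Ccl7, a CC chemokine that attracts monocytes (0.915), and Ier3 (0.902). Nearest to Cxcl2 were Ccl7 (0.934), Cxcl1 (0.925) and Ets2 (0.923). Both lists hold the other neutrophil attractant and Ccl7. Cxcl10 was nearest to Tnfaip3 (0.924), Skil (0.92) and Kdm6b (0.913), and Cxcl9 to Agpat5 (0.84), Vhl (0.827) and Prkx (0.809). Cxcl12 was nearest to Trove2 (0.878), Pros1 (0.871) and Cav2 (0.865), and Cxcl13 to Ptgis (0.919), Scamp1 (0.903) and Cacna1a (0.889). Cxcl16 was nearest to Cd86, a co-stimulatory ligand (0.951), Impact (0.944) and Ctla2b (0.939), and Pf4 to Kank2 (0.912), Cd164 (0.878) and Tulp4 (0.863).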

How the data were processed

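The deposited tables hold whole-number read counts per gene, which the authors made with STAR and featureCounts on mm10, per the submitters' processing notes. Versions, annotation and strand setting are not given in the sources used here. Cells were lysed after sorting, and libraries were made with Ovation SoLo and sequenced in pairs on a NextSeq500, per the labels' protocols. Samples were grouped by the labels' cell type and stage. No 2 libraries were identical.

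CPM used each library's total, and RPKM used the union of the exons of all transcripts of a gene in GENCODE vM21. Stages were tested within the 12 libraries of a population and populations over all 36, with edgeR 4.0.16 in R 4.3.3 (TMM, filterByExpr, quasi-likelihood, two-sided, Benjamini-Hochberg adjustment over all genes tested). SE is the log2 fold change divided by the root of the F statistic. Alternatives were DESeq2 1.42.0 with its own size factors, limma 3.58.1 (voom), no filter, thinning to 942899 reads, other sample sets, a replicate block and leaving out each library. The scripts were tested on simulated data. All 9 members were named, with list genes that passed the test (by p, not all of them printed), any list gene whose level stands beside a result, and for each member in the 36-library fit the 3 genes of highest Spearman correlation of log2 CPM among genes with a mean of at least 20 CPM in some group. Members and lists were chosen with earlier results of these data known.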

Additional observations from a re-analysis of the deposited data

Results flagged for a closer look

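In 60 groups of 4 libraries with at least 10 reads of a member, 3 had a library far from the others by Dixon's criterion, which flags about 1 in 20 groups by chance. In early peritoneal macrophages library 1 held 3.885 CPM of Cxcl1, where the other 3 held 154 to 187 CPM. The same library held 5.342 CPM of Cxcl2, where the others held 380.7 to 671.9 CPM. In aortic macrophages at baseline library 2 held 15.72 CPM of Cxcl13, where the others held 0 to 0.5131 CPM.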

How the results depend on the processing

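Depth was lower on the diet than at baseline, so low members such as Cxcl3 and Cxcl9 were limited by counts there. For early against baseline in the aorta 1 member was called, where 0.373% of genes were. No filter, leaving out the libraries that stand apart and DESeq2 each called 3, and 0.976%, 1.04% and 3.44% of genes. Thinning called 2 (0.679% of genes) and a fit of all 36 libraries 5 (19.1%). With a library left out 1 to 3 were called, and the share of genes is not given for such fits. For advanced against early there, 0 were called (0.0403% of genes), and 0 with any library left out. No filter, leaving out the libraries that stand apart and the fit of all 36 each called 1 (0.259%, 0.311% and 2.9% of genes). For advanced against baseline 2 were called (0.585% of genes) and 4 without the libraries that stand apart (1.58%). With a library left out 2 to 3 were. In monocytes, leaving out a library gave 0 to 1 for advanced against baseline. In the peritoneum early against baseline gave 1 (1.79% of genes), but 3 with no filter (2.66%) and by DESeq2 (7.13%). It gave 2 without the libraries that stand apart (0.905%), 0 after thinning (0.24%) and 0 to 2 with a library left out. Advanced against early gave 3 (1.33% of genes), but 1 after thinning (0.108%) and 2 in the fit of all 36 (0.751%). It gave 4 with no filter (1.63%) and by DESeq2 (5.66%), Cxcl12 added, and 1 to 4 with a library left out. Advanced against baseline gave 0, but 3 without the libraries that stand apart, 1 by DESeq2 and 0 to 1 with a library left out. Between aorta and peritoneum 7 were called (34.1% of genes), 3 among baseline (18.2%) and 3 among early libraries (17.2%). With a library left out 6 to 7 were. Peritoneum against monocytes gave 8 to 9 with a library left out. The causes were not tested. With replicate number as a block, calls went from 1 to 0 for early against baseline in the peritoneum, where 0.449% of genes were called. They went from 3 to 1 for advanced against early there (0.407%) and from 7 to 6 between aorta and peritoneum (28.3%, Cxcl12 lost). The other counts did not change. In no stage comparison did every library correlate best with its own number. Between peritoneum and monocytes at baseline every library did (r of 0.134 to 0.2273), but not at the later stages, and 8 members were called there with and without the block.

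Signs turned without the libraries that stand apart for Cxcl16 in the aorta, early against baseline (0.82), Cxcl9 in the aorta, advanced against baseline (-0.46), and in the peritoneum Cxcl12, early against baseline (0.19), and Pf4, advanced against early (-0.17). After thinning they turned in monocytes for Cxcl10 (0.48 for early and 0.11 for advanced against baseline) and Cxcl2 (-0.36 for advanced against early), and in the peritoneum for Cxcl12 (0.55 for early against baseline). By stage, they turned between aorta and monocytes for Cxcl9 (0.16 at baseline, 0.60 advanced) and between aorta and peritoneum for Cxcl12 (0.62) and Pf4 (0.36) among early libraries. With a library left out, early against baseline in the aorta ranged from -0.031 to 4.71 for Cxcl13 and -0.47 to 0.076 for Cxcl16, and advanced against baseline from -0.91 to 1.12 for Cxcl9. In monocytes Cxcl10 ranged from -0.27 to 0.10 for early against baseline, Cxcl2 from -0.57 to 0.44 and Pf4 from -0.92 to 0.67 for advanced against early, and Cxcl9 from -0.33 to 0.44 for advanced against baseline. Of the other single-gene values, 560 kept direction and call under alternatives other than leaving out a library, 32 gained and 23 lost a call.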
